A study of Homo sapiens with 3 samples.

Results

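The 10 genes described here encode the JUN, FOS and BATF groups of the AP-1 transcription factors. They are JUN, JUNB and JUND, then FOS, FOSB, FOSL1 and FOSL2, and BATF, BATF2 and BATF3, out of 20037 protein-coding genes on the primary chromosomes. They were taken by name, and each was examined over its protein-coding gene record (hg38) and 50 kb on both sides, called its window. Chromatin immunoprecipitation with sequencing (ChIP-seq) had been done in THP1, a human monocytic leukaemia line labelled wild type, kept for 24 h in PMA, a phorbol ester that activates protein kinase C and makes THP1 cells macrophage-like. There was 1 library for SIRT1, an NAD-dependent deacetylase, 1 for H3K27ac, the acetylated lysine on histone H3 that marks active promoters and enhancers, and 1 input whose signal was not analysed here. All 3 were treated with PMA, so nothing here compares treated with untreated cells. With 1 library per antibody there was no replicate check, no test between conditions was possible, and the intervals given cover counting error only.

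AP-1 factors bind DNA as pairs through a basic region and a leucine zipper. JUN proteins can pair with themselves or with FOS proteins, whereas FOS proteins need a partner. FOS and JUN are classic immediate early genes, switched on within minutes by growth factors, stress kinases and phorbol esters. AP-1 was in fact recognised through DNA elements that respond to phorbol esters, with the sequence TGACTCA. The related sequence TGACGTCA is bound by CREB and ATF factors and by some JUN pairs. BATF proteins have a zipper but lack the activation domains of FOS and pair with JUN proteins; with IRF4 or IRF8 they bind composite elements in lymphocytes and dendritic cells.

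Acetylation reached the gene ends of 9 of the 10 AP-1 genes, and of 56.7% of all coding genes. It was strong at JUN genes and at 3 of the 4 FOS genes, weak at BATF genes, and lacking at the ends of FOSB. Fold, deposited by the authors, is the signal at a peak's summit over its own local background. A peak counted at a gene end if any of its bases lay within 1 kb of it, so its summit can lie farther off. The highest folds at a gene end were 81.5 at JUNB, 77.1 at JUND, 58.4 at FOSL2, 57.8 at FOS, 49.3 at FOSL1 and 41.0 at JUN. The BATF genes came far below, with 15.8 at BATF, 6.96 at BATF2 and 4.48 at BATF3. SIRT1 lay at a gene end of 1 of the 10, BATF3, and of 10.8% of all coding genes.

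The starts of the 6 members whose sequence in the reference table holds TGACG are shown, since these letters are part of TGACGTCA, an element that CREB and ATF factors bind. FOSL1 and BATF3 have no entry in that table. The stretches below are the 250 bases before the start of each gene, 5′ to 3′ on the gene's own strand, from RefSeq on GRCh38.p14. They are chr1:58784048-58784297 on the minus strand, chr19:12791236-12791485 on the plus strand, chr19:18281623-18281872 on the minus strand, chr14:75278578-75278827 on the plus strand, chr2:28392608-28392857 on the plus strand and chr19:45467746-45467995 on the plus strand. Capitals mark TGACGTCA, TGACATCA or TGACG read on either strand, so that CGTCA is TGACG on the other strand.
JUN: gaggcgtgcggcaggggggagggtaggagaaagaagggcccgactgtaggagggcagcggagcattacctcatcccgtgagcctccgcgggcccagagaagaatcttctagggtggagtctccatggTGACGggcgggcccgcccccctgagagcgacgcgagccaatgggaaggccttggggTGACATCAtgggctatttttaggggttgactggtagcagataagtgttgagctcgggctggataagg
JUNB: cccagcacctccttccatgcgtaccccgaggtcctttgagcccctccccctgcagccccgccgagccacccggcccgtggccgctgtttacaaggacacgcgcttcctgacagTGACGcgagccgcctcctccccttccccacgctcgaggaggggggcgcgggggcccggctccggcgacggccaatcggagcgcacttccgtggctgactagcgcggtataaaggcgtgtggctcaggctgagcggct
JUND: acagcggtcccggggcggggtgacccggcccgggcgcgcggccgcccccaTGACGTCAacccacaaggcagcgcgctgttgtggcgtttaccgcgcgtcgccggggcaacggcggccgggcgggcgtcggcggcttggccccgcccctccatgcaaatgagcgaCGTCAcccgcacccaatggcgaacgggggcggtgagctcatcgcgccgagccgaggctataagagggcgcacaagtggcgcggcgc
FOS: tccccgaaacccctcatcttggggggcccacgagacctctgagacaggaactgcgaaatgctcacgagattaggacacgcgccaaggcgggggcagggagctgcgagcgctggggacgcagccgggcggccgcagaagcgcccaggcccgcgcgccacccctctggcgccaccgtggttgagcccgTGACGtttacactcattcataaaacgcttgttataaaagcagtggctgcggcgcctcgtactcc
FOSL2: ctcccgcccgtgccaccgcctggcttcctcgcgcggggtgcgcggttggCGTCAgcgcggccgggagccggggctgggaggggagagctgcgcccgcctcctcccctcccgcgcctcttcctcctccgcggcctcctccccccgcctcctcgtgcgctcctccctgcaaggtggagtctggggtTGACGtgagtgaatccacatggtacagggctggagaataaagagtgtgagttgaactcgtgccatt
FOSB: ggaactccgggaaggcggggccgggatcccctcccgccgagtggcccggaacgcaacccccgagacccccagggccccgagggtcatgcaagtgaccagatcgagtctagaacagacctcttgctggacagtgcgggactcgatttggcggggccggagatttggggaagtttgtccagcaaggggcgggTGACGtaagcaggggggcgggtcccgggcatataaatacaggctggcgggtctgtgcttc

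Of the 8 members with a promoter sequence in the reference table, 6 held TGACG in these 250 bases. They were JUN, JUNB, JUND, FOS, FOSB and FOSL2, the genes printed above. Over the same 250 bases 25.6% of 15843 coding-gene promoters held TGACG. JUND held the full TGACGTCA, 200 to 193 bases before its start, a palindrome that counts as TGACG on both strands; 2.32% of promoters held it. JUN held TGACATCA, 67 to 60 bases before its start, and BATF2 held it 132 to 125 bases before the start in the table, against 1.99% of promoters. TGACTCA was in none of the 8 stretches and in 3.17% of promoters, and the CArG box, bound by serum response factor, was in none of the 8 and in 1.14%. The motifs were chosen with the sequences known. These are matches of letters and not measured binding, and a missing match says only that the letters are not in these bases. The share of G and C was 62.0% at JUN, 70.8% at JUNB, 74.8% at JUND, 64.8% at FOS, 65.6% at FOSB and 69.6% at FOSL2, against 43.2% at BATF and 55.2% at BATF2. The shares of promoters given above were not matched for G and C.

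Of these 8 starts, 6 lay under an H3K27ac peak, counting the table's 300 bases that run from 250 before to 50 after each start; of all 15843 such promoters 51.6% did. The exceptions were FOSB and BATF2. FOSB has the same short TGACG element as FOS, 60 to 56 bases before its start where FOS has it at 64 to 60, and had no peak over it.

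Levels at gene ends set the JUN genes and 3 FOS genes apart from the BATF genes and FOSB. In all, 9 of 10 AP-1 genes had an H3K27ac peak within 1 kb of either end of the record, with an exact 95% binomial interval of 55.5 to 99.7% for the share. The members' share was above the 56.7% of all coding genes, a value inside that interval. The members were named and not drawn at random, so the interval does not test this difference. Over all 10 members, with FOSB counted as 0, the median of the highest fold was 45.2, against 6.12 over all coding genes counted likewise. Among genes with such a peak the median was 49.3 for the 9 members and 19.0 for the 11354 coding genes. No comparison with chance was made, and the members were chosen with earlier results of these data known.

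The fragments behind each summit give its counting error, without the local background that also enters the fold. They were recovered from the deposited fold and p, as 241 at JUNB (exact 95% Poisson interval 212 to 273), 205 at JUND (178 to 235), 210 at FOSL2 (183 to 240) and 191 at FOS (165 to 220). FOSL1 had 206 (179 to 236) and JUN 173 (148 to 201). The BATF genes had 32 at BATF (21.9 to 45.2), 24 at BATF2 (15.4 to 35.7) and 18 at BATF3 (10.7 to 28.4). Every neighbouring pair in the order of folds had overlapping intervals of fragments, except JUN and BATF. Such overlap does not show whether the folds themselves differ. The background under these summits was 1.16 times the lowest of the list at BATF and between 1.78 and 3.46 times at the other 8, so fold and fragments do not give quite the same order.

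**Figure D1:**
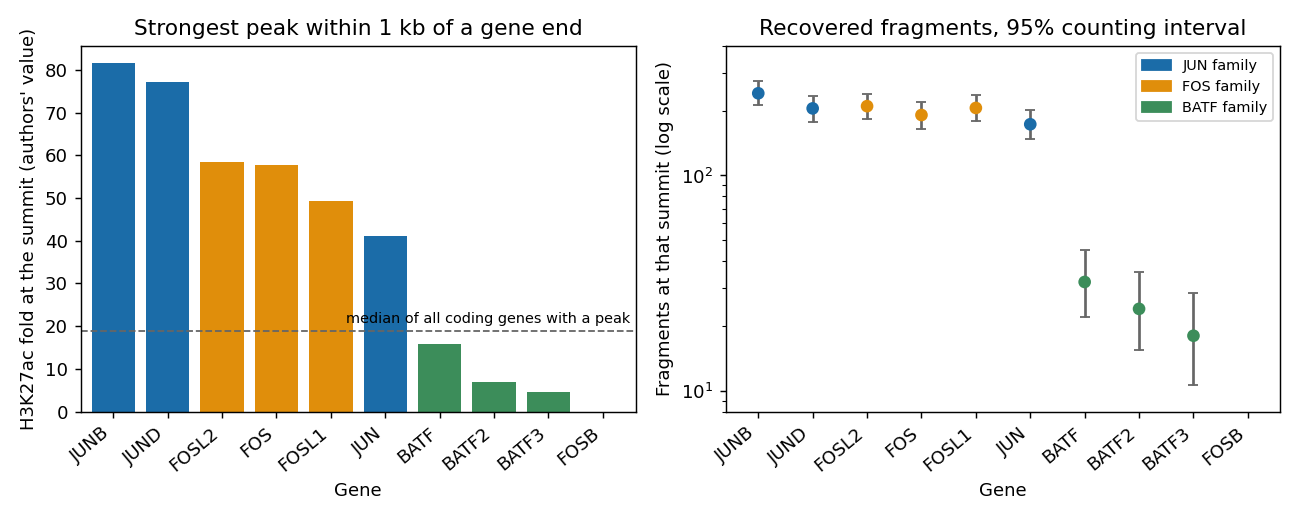
The left panel plots, for each AP-1 gene, the highest summit fold of an H3K27ac peak that reached within 1 kb of a gene end. The right panel plots the fragments at that summit on a log axis with exact 95% Poisson intervals, from 1 library. JUNB leads with 81.5 and 241 fragments, BATF3 is lowest with 4.48 and 18 fragments, and FOSB has no such peak; the dashed line is the median of 19.0 over coding genes with a peak.

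JUN proteins are the usual partners of FOS and BATF proteins. JUNB, an early response gene of myeloid differentiation (record at chromosome 19, 12791486 to 12793315), was covered from end to end by a peak of 12.8 kb at 12781987 to 12794780. Its summit lay 1873 bases before the start. The peak ran back over the end of the neighbouring gene HOOK2, a cytoskeletal adaptor gene whose record overlaps that of JUNB, so the signal cannot be given to JUNB alone. By the fold of this peak, whose summit lay more than 1 kb from either end, JUNB ranked 256 of 20037 coding genes. The JUNB window held just 3 further H3K27ac peaks, the strongest with a fold of 28.2 at 12777365 to 12779349, inside HOOK2.

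JUND, the JUN member known for steady rather than induced expression, ranked 326 of 20037. Its peak of 4.81 kb at 18278393 to 18283205 on chromosome 19 covered the whole record (18279694 to 18281622), with the summit 583 bases before the start. Further strong peaks lay upstream. One at 18290890 to 18294570 had a fold of 49.9 and 183 fragments and touched no coding gene. Another at 18302776 to 18306003, with 46.4 and 181 fragments, lay at an end of LSM4, a gene for a splicing and RNA decay protein. Joined across gaps of up to 10 kb, the JUND peak belonged to a domain of 49.5 kb with 16 peaks, ranked 226 of 20969 by bases under peaks.

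JUN itself stood nearly alone. Most of its record (chromosome 1, 58780791 to 58784047) lay under 1 peak of 4.30 kb at 58781400 to 58785697, with the summit 599 bases past the start, inside this gene without introns. No other coding gene lies in the JUN window. The 5 other H3K27ac peaks there had folds of 4.20 to 12.2, with summits at least 25.6 kb from the record. JUN was thus the lowest of the strong group at its own end and the only one whose peak joined no other within 10 kb.

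FOS genes encode the partners that give AP-1 pairs with JUN their stability. FOS (chromosome 14, 75278828 to 75282230) had 3 peaks on its record. The main one, 75276995 to 75280478, covered the start, with a summit 148 bases before it and a fold of 57.8. The next, at 75280879 to 75281645 inside the gene, had 5.77, and the third, from 75282230 on past the other end, had 13.1. They rested on 191 (165 to 220), 16 (9.15 to 26.0) and 42 (30.3 to 56.8) fragments, so the summit inside the gene had fewer fragments than the summits on either side. Farther out, a peak of 10.2 kb at 75293393 to 75303583 had a fold of 45.0 and 146 fragments, with its summit 14.3 kb beyond the record. No other coding gene lies in the FOS window. The domain over FOS spanned 29.2 kb with 6 peaks and ranked 341 of 20969.

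FOSL2, which encodes FRA-2 (chromosome 2, 28392858 to 28417317), had a peak of 9.87 kb over its start, 28389553 to 28399422, with a summit 231 bases past the start and a fold of 58.4. Inside the gene 3 further peaks had folds of 4.35, 13.1 and 6.08. At a distance, 28446194 to 28450464 held a fold of 40.1 and 96 fragments, 31.5 kb beyond the record. This window holds no other coding gene, and 13 of its 17 H3K27ac peaks lay outside the record and its ends.

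FOSL1, which encodes FRA-1 (chromosome 11, 65892049 to 65900545), was marked by a much narrower peak of 1.43 kb, 65899036 to 65900465, with a fold of 49.3 and a summit 489 bases inside the upper end of the record. A second peak at the lower end, 65890659 to 65892533, had 8.25 and also lay at an end of CCDC85B. Between them 4 small peaks inside the gene had folds of 2.88 to 5.20. The window is crowded, with 10 other coding genes. Its peak of highest fold, 54.5 at 65856082 to 65862516, lay at ends of CFL1 and MUS81, the genes for cofilin, which severs actin filaments, and for a DNA repair nuclease. That peak rested on 204 fragments (177 to 234) and the one at FOSL1 on 206 (179 to 236), so the fragments do not tell the 2 apart.

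FOSB (chromosome 19, 45467996 to 45475179) was the exception among FOS genes. Its window held the most H3K27ac peaks of the 10, 22, and the widest cover, 26.7% of its bases. FOSB itself carried 1 small peak, at 45469508 to 45470035, with a fold of 3.83 on 14 fragments (7.65 to 23.5) and a summit 1694 bases past the start, out of reach of either end. The strong peaks lay far off. The highest, a fold of 70.3 with 197 fragments, was at 45505757 to 45512189, and lay at an end of VASP, an actin regulator gene. The next, with 65.4 and 213 fragments, was at 45421831 to 45426285, inside ERCC1, a DNA repair gene. Of the 22 peaks 4 lay at an end of another coding gene and 15 inside one.

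The BATF group carried weaker marks. BATF (chromosome 14, 75522469 to 75546992) had a peak of 2.84 kb at its start, 75521963 to 75524798, with a summit 172 bases past the start and a fold of 15.8, below the median of 19.0 of coding genes with a peak. Of all coding genes 32.9% had a fold at least as high. Inside the gene 2 further peaks had folds of 7.40 and 4.65. The peak sat on the start as at FOS and FOSL2, with 32 fragments at BATF against 191 at FOS and 210 at FOSL2.

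BATF2, known as a gene that interferons induce in macrophages (chromosome 11, 64987945 to 64996971), had its peak at the upper end of the record, 64996313 to 64997534, with a fold of 6.96. This gene is read on the minus strand, so the upper end is the start of the record. The start in the promoter table lies inside the record, and the summit was 7030 bases before it, with no peak over that start. Which start is used cannot be told from these files. The strongest peak of the window, at 65013638 to 65015132 with a fold of 28.6 and 139 fragments, lay at an end of ARL2, a small GTPase gene.

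BATF3 (chromosome 1, 212686417 to 212699840) is needed in mice for cross-presenting dendritic cells. Of the 9 genes with a peak at an end it had the lowest fold there. At the upper end 2 narrow peaks, 212699154 to 212699735 and 212700126 to 212700671, had folds of 4.33 and 4.48 on 23 and 18 fragments and left a gap over that end of the record. At the lower end a peak at 212685389 to 212685814 had 3.92 on 8 fragments. A stronger peak, at 212682386 to 212684986, stopped 1.43 kb below the record, beyond the reach of 1 kb. It had a fold of 19.2 on 41 fragments and a summit 3.02 kb below the record. At gene ends 54.1% of all coding genes had a fold of at least 4.48, and 56.7% had any such peak, so BATF3 was among the lowest that had one.

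Over the 10 windows, none of which overlap, 118 H3K27ac peaks were found. All 10 windows held at least 1, as did 83.0% of windows drawn the same way around all coding genes. The median was 9.5 peaks per window over the members, with a range of 4 to 22, against a median of 3 over all coding genes, where the 90th percentile was 13. The windows above that percentile were FOSB with 22, FOSL1 with 19, JUND with 18 and FOSL2 with 17. FOS had 10, BATF 9, BATF3 7, JUN and BATF2 6 each, and JUNB 4.

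The windows differed in where their peaks lay. JUNB had the fewest peaks and the highest fold at its end, and FOSB the most peaks and none at its ends. Of the 118 peaks 14 lay at the member's own end, 10 elsewhere in its record, 24 at an end of another coding gene, 25 inside another and 45 between coding genes. The median fold was 14.5 at own ends, 7.60 at other ends and 6.56 between genes. In 6 windows the peak of highest fold was the member's own, namely JUN, JUNB, JUND, FOS, FOSL2 and BATF. In the windows of FOSB, FOSL1, BATF2 and BATF3 it was not, although at FOSL1 the fragments of the member's own peak were as many within counting error.

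**Figure D2:**
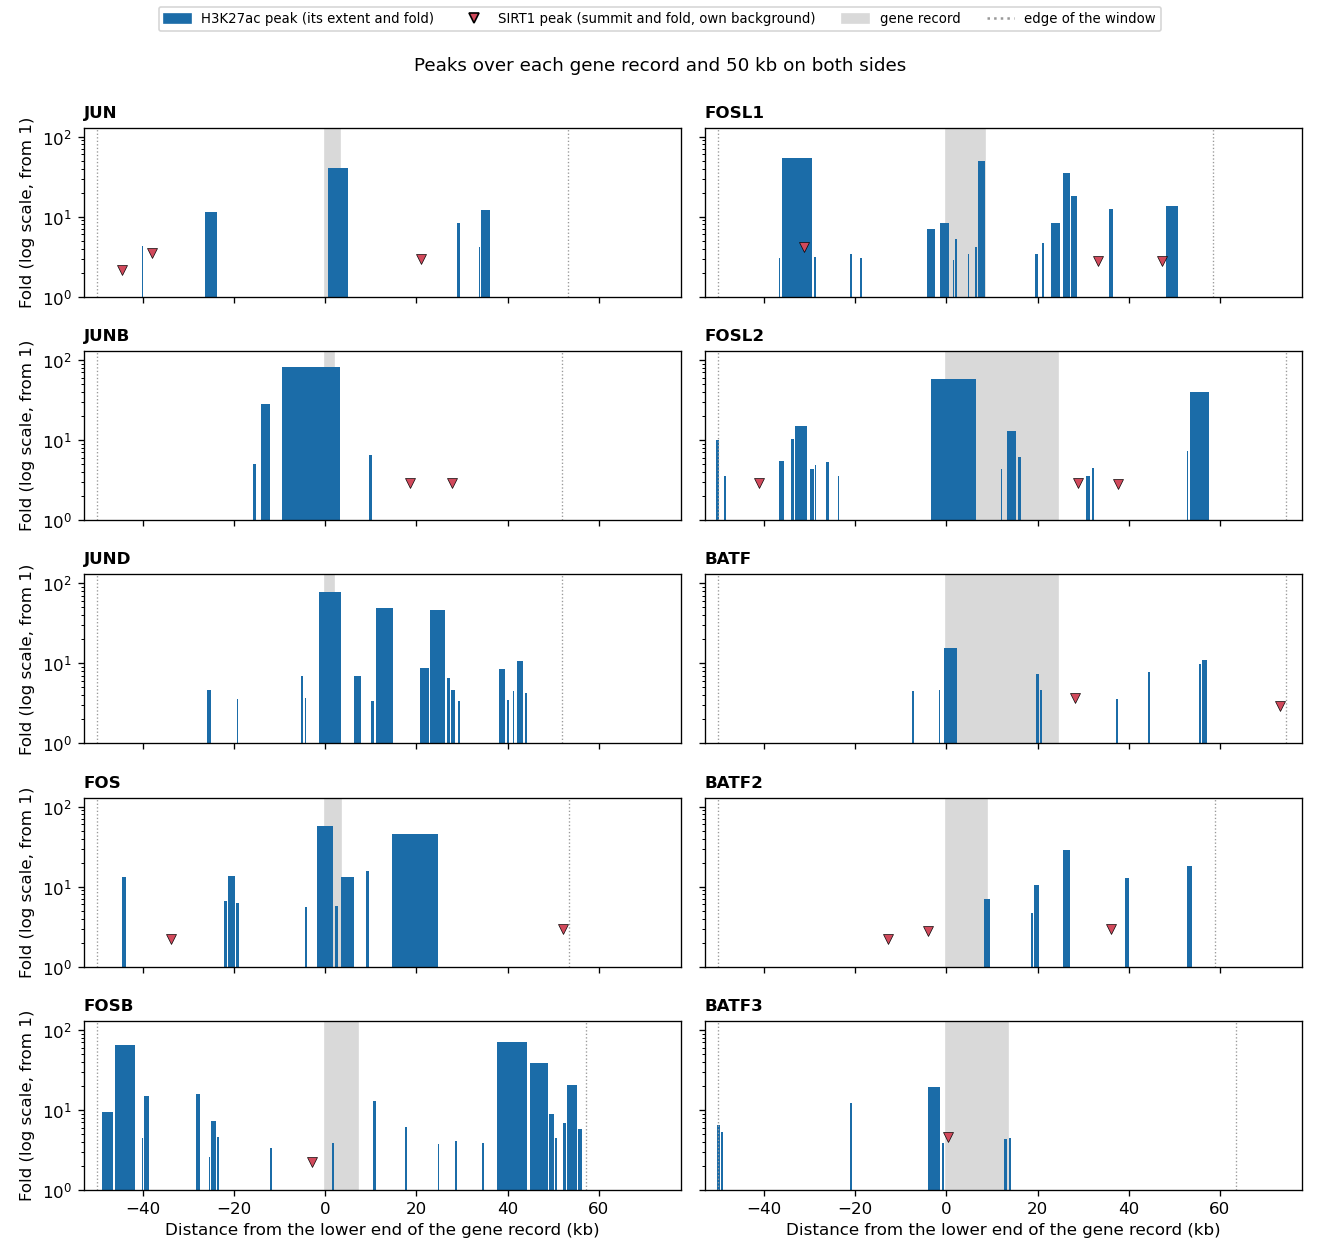
Each panel plots 1 AP-1 gene, with distance from the lower end of its record on the x axis (kb) and fold on a log y axis; blue bars are H3K27ac peaks, red triangles SIRT1 summits, grey the gene record, and dotted lines the window's edges. JUNB shows 1 wide peak over the gene, JUND, FOS and FOSL2 further strong peaks beside it, FOSB strong peaks near the window's edges only, and the SIRT1 summits, with folds of 2.13 to 4.62, mostly lie between the blue bars.

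SIRT1 peaks at AP-1 genes rested on few fragments, as they did over the whole list, where the median was 3. Of the 10 members 1 had a SIRT1 peak at a gene end, and of all coding genes 10.8% did, so the members' count is near the background. The peak was at BATF3, at 212686442 to 212686778, with a fold of 4.62 on 6 fragments (2.20 to 13.1) and a −log10 q of 0.804, short of a q of 0.05. Its summit lay inside the lower end of the record. The nearest H3K27ac peak, 628 bases away, was the one with a fold of 3.92. Of all SIRT1 peaks 0.216% had a fold as high. A relation between SIRT1 and acetylation at BATF3 was not tested.

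In the windows of the 10 genes 20 SIRT1 peaks were found. A window held a SIRT1 peak at 9 of 10 members and at 92.7% of all coding genes. The median was 2 per window over the members, with a range of 0 to 3, against 4 over all coding genes. The median length of a window was 108 kb over the members and 124 kb over all coding genes. Per 100 kb of window the medians were 1.95 for the members and 2.74 for all coding genes; for H3K27ac they were 8.45 for the members and 2.39 for all coding genes. JUN, FOSL1, FOSL2 and BATF2 had 3 each, JUNB, FOS and BATF 2 each, FOSB and BATF3 1 each and JUND none. JUND thus had none beside 18 H3K27ac peaks; of all coding genes 7.34% had no SIRT1 peak in the window.

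Of these 20 SIRT1 peaks 13 rested on 3 fragments, 3 on 2, 2 on 4 and 2 on 6, and 16 had a −log10 q of 0. Over the whole list 84.4% rested on 2 or 3 fragments and 86.2% had a −log10 q of 0. None of the 20 reached a q of 0.05, and over the list 136 of 95517 did. The 2 peaks on 6 fragments were the one at BATF3 and one in the FOSL1 window at 65860546 to 65860874, with a fold of 4.22. That peak was the only one of the 20 that shared bases with an H3K27ac peak, 5.0% (exact 95% binomial interval 0.127 to 24.9%), against 0.745% of all SIRT1 peaks. It fell in the peak with a fold of 54.5 at CFL1 and MUS81, within 1 kb of an end of MUS81 and 31.3 kb from FOSL1. Its background was 1.82 times the lowest of the SIRT1 list, and only the FOSB peak, at 2.12 times, was also above 1.5 times.

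The other 19 SIRT1 peaks shared no base with an H3K27ac peak. Their distance to the nearest H3K27ac peak ranged from 628 bases at BATF3 to 21.0 kb at BATF2, and over all 20 the median was 4.66 kb. At FOSB the SIRT1 summit was 2.86 kb from the record with a fold of 2.26 on 3 fragments. At BATF a peak with a fold of 3.67 on 4 fragments (1.09 to 10.2) lay 3.72 kb beyond the record. At FOSL2 the nearest was 4.43 kb off, with 2.94 on 3 fragments, a fold that 43.4% of the list reached. At 2 to 4 fragments such peaks cannot be ordered by strength.

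**Figure D3:**
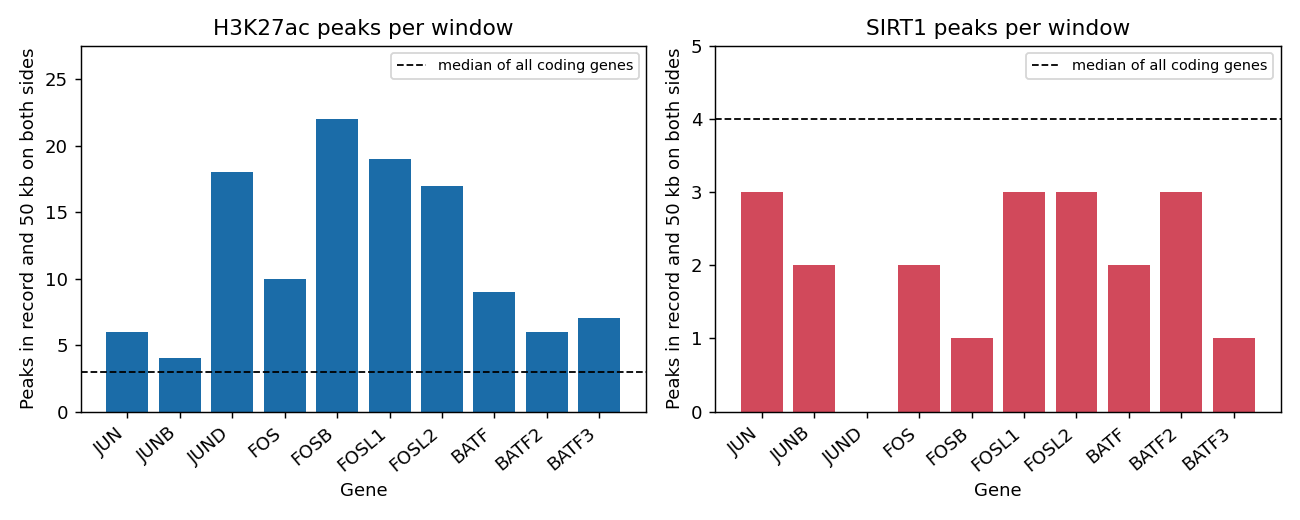
The bars give the number of H3K27ac peaks (left) and SIRT1 peaks (right) in each AP-1 gene's record and 50 kb on both sides; dashed lines are the medians over all coding genes, 3 and 4 peaks. Every H3K27ac bar is above its line, every SIRT1 bar is below its line, and JUND has no SIRT1 peak.

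Genes that work with AP-1 were then counted, in lists chosen with earlier results of these data known. Of 42 pathway genes 37 had an H3K27ac peak at a gene end, against 56.7% of all coding genes, with a median fold of 23.0 among those with a peak, against 49.3 for the 9 AP-1 genes and 19.0 for all coding genes. A SIRT1 peak lay at an end of 1 of the 42, against 10.8% of all coding genes. It was at MAP3K1, a kinase gene upstream of JNK, with a fold of 3.67.

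All 16 genes for kinases that lead to AP-1 were acetylated at an end. PRKCD, a protein kinase C isoform that phorbol esters activate, was highest with 103. The median of the 16 was 16.9, below the 19.0 of coding genes with a peak, and the lowest was MAPK9, the JNK2 gene, with 9.46. MAPK8, the JNK1 gene, had 23.0 and PRKCA, another protein kinase C gene, 14.2. Among ATF partners 5 of 6 had the mark, led by ATF4, the main factor of the integrated stress response, with 74.2 and ATF5 with 61.5. JDP2, a repressor that pairs with JUN, had 10.1. ATF3, a stress-induced partner of JUN, had none at its record's ends and 17 H3K27ac peaks in its window.

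Of the serum response factor group, which turns on FOS in response to growth signals, 5 of 6 were marked. ELK4 had 55.0 and SRF 45.7, while MRTFB had no peak at its ends. Of the IRF partners of BATF, IRF8, a monocyte and dendritic cell regulator, had 6.78 and IRF4 none. The fold of IRF8 lay between those of BATF3 and BATF2.

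Among target genes that textbooks give for AP-1, 10 of 12 carried the mark. VEGFA, an angiogenic factor gene, had 51.9 and IL1B, an inflammatory cytokine gene, 51.7. PLAUR, the urokinase receptor gene, had 41.6, CCND1 39.1 and MMP9, a gelatinase gene, 34.2. MMP1 and MMP3, the collagenase and stromelysin genes whose promoters defined AP-1 elements, had no H3K27ac peak at an end. CXCL8 had 13.8 and TNF 7.75.

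**Figure D4:**
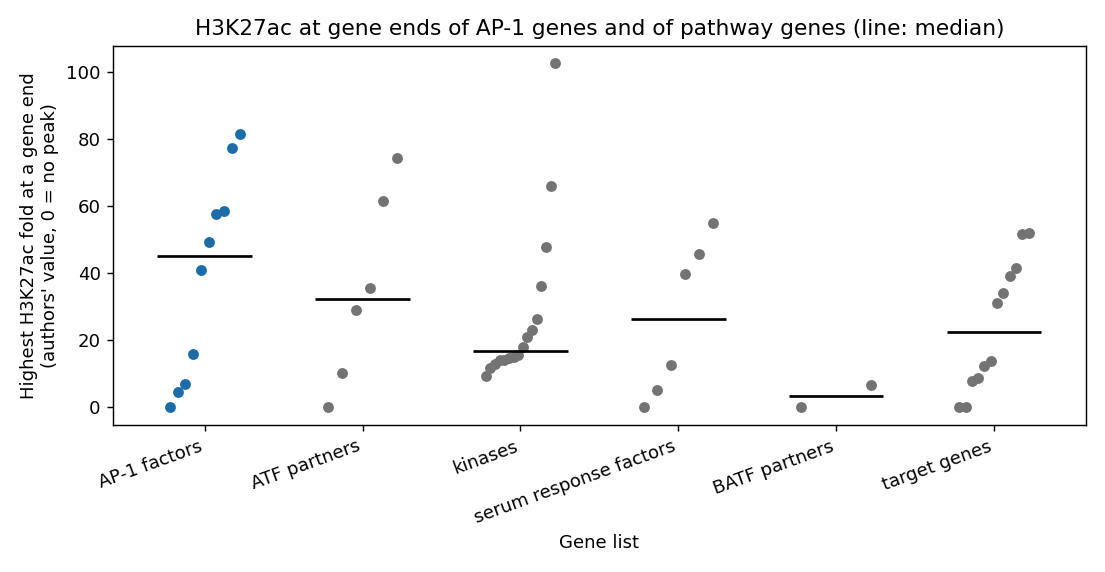
Each point is 1 gene and the y axis the highest summit fold of its H3K27ac peaks that reached within 1 kb of a gene end, with 0 for no peak. The AP-1 factors stand left of the 5 pathway lists and lines are medians. The AP-1 median of 45.2 is above each list's median, while PRKCD, among the kinases, is the highest single gene with 103.

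The genes closest to the 3 highest members in highest end fold, H3K27ac peaks and SIRT1 peaks per window were named by distance on a log2 scale over both libraries. KLLN was closest to JUNB, with a fold of 79.1, 4 H3K27ac and 2 SIRT1 peaks, at a distance of 0.0430. CAP1 was closest to JUND with 67.5, 20 and 0, at 0.239. ANKRD13D was closest to FOSL2 with 60.5, 17 and 3, at 0.0513. No meaning beyond these 3 numbers is attached to the likeness.

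The label of the cells was checked on gene ends. Of 10 monocyte and macrophage marker genes 8 carried H3K27ac, against 56.7% of all coding genes, and LYZ and CD163 lacked it. No test against that share was made. SPI1 had 109 and CSF1R 68.3. CD14 and ITGAM lay below the median of 19.0 of coding genes with a peak, and the rest of the 8 above it. Of the markers of other cells 3 of 9 for T cells, 3 of 10 for B cells and 1 of 10 for epithelium carried H3K27ac. The T cell gene with the highest fold, 29.8, was CD4, which monocytes also express. The H3K27ac list held 48735 peaks on the primary chromosomes with a median of 15 fragments at the summit, and the SIRT1 list 95517 with a median of 3. The total number of reads per library is unknown. The 2 lists were cut on different quantities, −log10 q for H3K27ac and −log10 p for SIRT1, so levels were compared within a list only.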

How the data were processed

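ChIP-seq peak lists for H3K27ac and SIRT1 in PMA-treated THP1 cells were used, 1 library each. MACS2 and deepTools, on build hg38, are named per the submitters' processing notes; aligner, control and versions were left out as not given in the sources used here. Duplicates were marked, going by the peak names. The fold, a ratio to local background, the −log10 p and −log10 q, and the score were deposited by the authors. In the deposited files −log10 q was at least 1.30 for H3K27ac, and −log10 p at least 2.00 for SIRT1. Scores were not used.

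Fragments and background were recovered from fold and p, with 1 added to both terms of the fold and p read as the Poisson chance of more fragments; 99.98% of H3K27ac and 99.998% of SIRT1 peaks had 1 whole-number solution. Tested on simulated data, 100% of 993 H3K27ac-like and 100% of 726 SIRT1-like peaks were returned. The simulation used the same formulas, so it checks the arithmetic only and not whether the peak caller used them. Simulated peaks with fragments not more than 1 above background were left out. Library totals are unknown. Genes came from RefSeq (GRCh38.p14). Overlap meant 1 shared base, and a gene end reached 1 kb to each side of the first or last base of a record. Strand came from the promoter table, for 8 of the 10 members. The members, lists, motifs and the 10 kb joining were chosen with earlier results of these data known. Named genes were the members; per list the 2 highest, those with no mark and those with SIRT1; genes under or beside members' strongest peaks; and the closest genes by distance; some genes that this rule names are not reported here. Other named pathway and marker genes were chosen after their values were seen. Intervals are exact 95% binomial or Poisson intervals. The tools were scipy 1.17.1, pandas 2.3.3, numpy 2.4.6, matplotlib 3.10.9 and Python 3.11.15. No sequence outside the promoter table was used.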

Additional observations from a re-analysis of the deposited data

How the results depend on the processing

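Of 39 recomputed values 26 stayed within 1.5 times the reported count, or within the counting interval of the median fold, and 13 moved. That interval, 35.2 to 56.5, runs from the lower counting bound of JUN to the upper one of FOSL1, the middle genes. It does not describe the spread over the members. No paired analysis was possible because each antibody had 1 library. Acetylated AP-1 genes numbered 9 or 10 of 10 under every gene-end reach and threshold run, and 6 of 8 with starts only. The thresholds, a fold of at least 4 or a −log10 q of at least 2, could remove none of the 9. The weakest, BATF3, had a fold of 4.48 and a −log10 q of 6.64. The places of BATF3 and FOSB depend on the reach. At 2500 bp the reach takes in the BATF3 peak with a fold of 19.2, above the 15.8 at BATF. It also takes in the peak of FOSB with a fold of 3.83, so that FOSB no longer lacks one. The median fold of 45.2 became 49.4 with starts only and was otherwise the same. Pathway counts stayed at 36 to 38 of 42, or 28 of 32 with starts only. No share of all coding genes is given at these other settings, so these counts have no background beside them.

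The H3K27ac peaks in the windows, 118 as reported, were 40 with flanks of 10 kb, 190 with 100 kb and 71 when merged within 1 kb. The 20 SIRT1 peaks became 5 and 47 with those flanks, 2 with a fold of at least 4 and 0 with a −log10 q of at least 2. The 1 member with SIRT1 at an end became 0 at that q and 0 with starts only, since the table gives no start for BATF3. The 1 SIRT1 peak that overlapped H3K27ac became 0 with flanks of 10 kb, 2 with 100 kb, 0 at that q and 3 when a summit within 1 kb counted. Flanks, merging and thresholds change these counts by construction. SIRT1 values at AP-1 genes rest on 2 to 6 fragments each, which limits their precision.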

Other observations

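FOS and BATF lie on the same chromosome with JDP2 between them. In the 140 kb between the FOS and BATF windows (chromosome 14, 75332231 to 75472468) there were 3 H3K27ac peaks and 4 SIRT1 peaks. The strongest H3K27ac peak, with a fold of 10.1 on 29 fragments, lay at 75427095 to 75428673 on the JDP2 record. The strongest SIRT1 peak had a fold of 2.94 on 3 fragments. FOS, JDP2 and BATF thus had folds of 57.8, 10.1 and 15.8 at their ends, with more H3K27ac peaks in the FOS window, 10, and in the BATF window, 9, than in the stretch between them.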
